A study of Mus musculus with 10 samples.

Results

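The 37 genes described here make, store and break down triglyceride or are products by which a mature fat cell is known. They comprise 19 genes of lipid synthesis, 7 of lipid droplet proteins, 5 of lipolysis and 6 adipokines and other adipocyte products. A gene entered when a probe set of the deposited table was annotated to its symbol alone, and the brightest probe set over all 10 arrays stood for it, with no filter on intensity. This gave 36 of the 37 genes, out of 19937 genes in the table. Cfd, the adipokine adipsin, was not analysed here.

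The study compared clones of 3T3-L1, a mouse embryonic fibroblast line whose cells become fat-storing adipocytes when given insulin, dexamethasone and IBMX. High lines are 5 clones that stored much triglyceride after this cocktail, and Low lines are 5 clones that stored little. In both classes the RNA came from proliferating cells in DMEM with serum, below confluence and without the cocktail or any other treatment. Each line is 1 clone and gave 1 array, so a difference between classes holds clonal, culture and array variation together, and the triglyceride level that divided the classes is not given in the sources used here. Throughout, values of High lines are given in the order of clones 3F4, 4D2, 4E3, 5C4 and 5D4 (High replicates 1 to 5), and values of Low lines in the order of 1E7, 2D7, 2F1, 4D11 and 4H4 (Low replicates 1 to 5).

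In a fat cell, acetyl-CoA made from citrate is built into fatty acids, which are elongated, desaturated and joined to glycerol 3-phosphate to form triglyceride. The triglyceride collects in droplets coated by perilipins and is released again by a chain of lipases. Differentiation of preadipocytes raises most of these genes and switches on adipokines such as adiponectin and leptin, whereas dividing cells of any kind also make fatty acids for their membranes. The comparison asks whether any of this programme already differed between the classes, or was already running, before differentiation began.

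None of the 36 genes differed between High and Low lines beyond the test's threshold. Each gene was tested with limma across all 19937 genes with Benjamini-Hochberg adjustment, and 0 of the 36 had an adjusted p under 0.05, against 0.00502% of all genes tested (1 gene, Angptl4). The smallest limma adjusted p among the 36 was 0.589, for the droplet protein gene Plin3. At an unadjusted limma p under 0.05 there were 3 genes with a positive difference (8.33%), Plin3, Aqp7 and Abhd5, and 0 with a negative one, where 3.01% and 4.20% of all genes did so. After each array was centred on its median, or without High clone 3F4, 0 of the 36 reached that level. No gene had all 5 lines of one class above all 5 of the other, which 1.35% of all genes had.

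The differences were small as well as uncertain. A difference is High minus Low in log2 intensity, and its fold is taken on the deposited log2 scale, which can understate changes of dim probe sets. Folds lay between 0.858 for Acaca and 1.19 for Plin3. The 95% interval of each of the 36 genes lay within a 1.5-fold difference in either direction, the widest being that of Lpin1, from -0.58 to 0.53. The intervals are those of single genes and were not widened for the number of genes. The median difference was 0.031 over the 36 genes and 0.023 over all genes, and the median size of a difference without its sign was 0.090 and 0.068. Of the 36 genes 24 had positive and 12 negative differences (66.7% positive, against 59.7% of all genes). With arrays centred on their medians they were 18 and 18, so no direction of the group as a whole is given. Agpat2, Cidea, Lpin2, Me1, Retn and Scd2 had positive differences as deposited and negative ones after centring.

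The names of the clones limit the comparison further. Only names that begin with 4 occur in both classes (4D2 and 4E3 among High lines, 4D11 and 4H4 among Low lines), and what this digit stands for is not given in the sources used here. With this digit in the limma model the difference comes from those 4 lines alone. In that fit 13 differences were positive and 23 negative, and their median was -0.031, against -0.0022 over all genes, 1 gene (Pnpla2) had an unadjusted p under 0.05, and the difference was 0.14 for Plin3, 0.18 for Aqp7 and 0.064 for Abhd5. Several negative differences were larger than over all 10 lines, at -0.36 against -0.17 for Pnpla2, -0.33 against -0.17 for Fasn, -0.33 against -0.22 for Acaca and -0.24 against -0.11 for Adipoq, and no limma adjusted p of the 36 passed. The median log2 intensity of an array lay between 7.74 and 7.84, and the number of arrays limits the precision of every value.

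**Figure D1:**
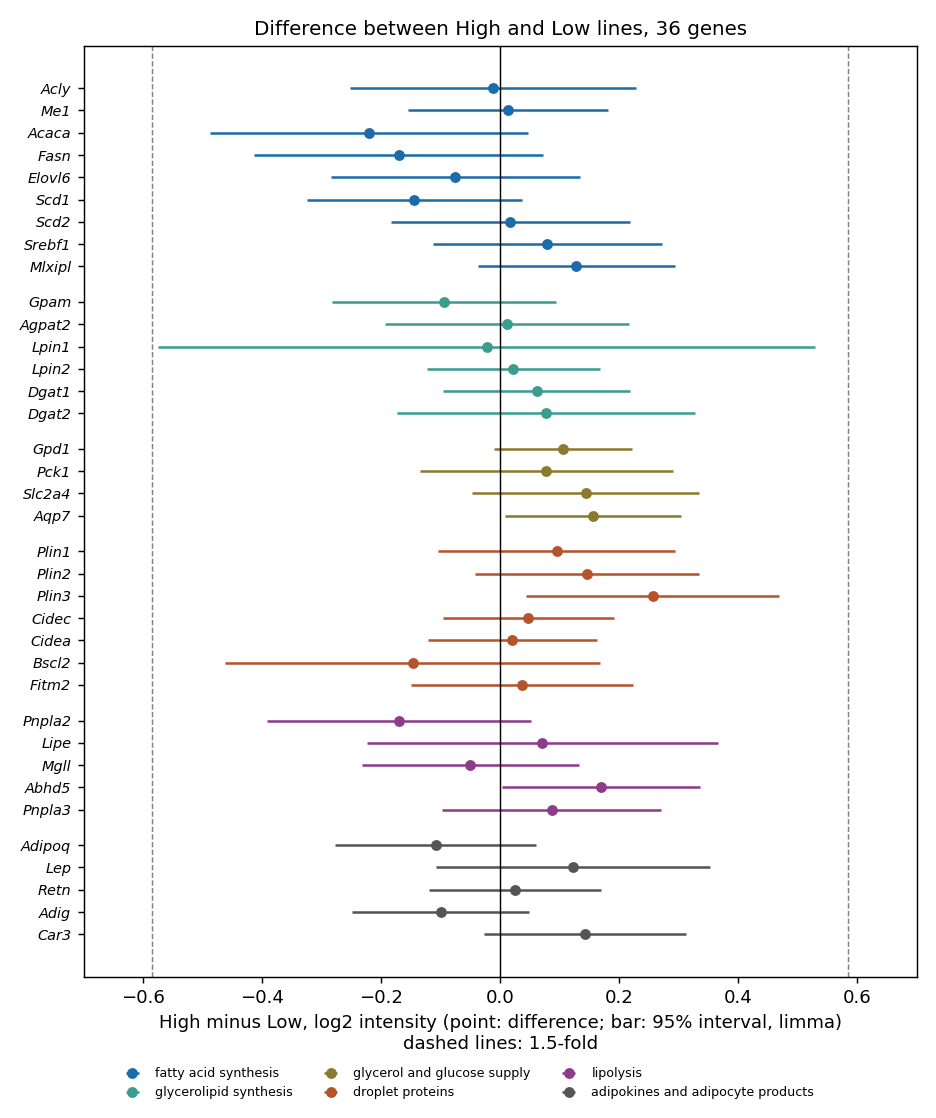
Difference in log2 intensity between High and Low lines (High minus Low, horizontal axis) for 36 genes grouped by role; points are differences, bars are 95% intervals of limma and dashed lines mark 1.5-fold. Every interval stays between the dashed lines, and only those of Plin3, Aqp7 and Abhd5 leave out 0.

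Of the 9 genes of fatty acid synthesis 8 lay above the median of their array in all lines of both classes. Acly cleaves citrate to acetyl-CoA, Acaca carboxylates it, Fasn assembles palmitate, Elovl6 elongates it, and Scd1 and Scd2 desaturate the products, while Me1 supplies NADPH. The median difference of the 9 genes was -0.012, with 4 positive and 5 negative, and 0 reached an unadjusted p under 0.05 in limma. Acaca measured 10.54, 10.11, 10.23, 10.54 and 10.38 in High lines, against 10.81, 10.79, 10.31, 10.67 and 10.32 in Low lines. High clones 4D2 and 4E3 were below every Low line, and the other High lines were within the Low range. The difference was -0.22 (SE 0.12), with an unadjusted p of 0.0977 and an adjusted p of 0.758 in limma. Another probe set of Acaca gave -0.25.

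Scd1, the stearoyl-CoA desaturase that rises strongly in differentiating fat cells, measured 12.72, 12.49, 12.59, 12.53 and 12.79 in High lines, against 12.83, 12.90, 12.68, 12.57 and 12.85 in Low lines. High clones 4D2 and 5C4 were below all Low lines, and the other 3 lay inside their range. The difference was -0.14 (interval -0.32 to 0.036, limma adjusted p = 0.763). Its close relative Scd2, which is active in many tissues, averaged 13.42 ± 0.10 in High lines and 13.40 ± 0.19 in Low lines (SD, n = 5 each), a difference of 0.017. Fasn differed by -0.17, Elovl6 by -0.075, Acly by -0.012 and Me1 by 0.013, each with a 95% interval that included 0. Another probe set of Me1 gave -0.12, so the sign for this gene depends on the probe set.

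The genes of 2 transcription factors that drive these enzymes also gave differences within their intervals. Srebf1, which encodes the lipogenic factor SREBP1, averaged 9.60 ± 0.14 in High lines and 9.52 ± 0.15 in Low lines (SD, n = 5 each), a difference of 0.079. Mlxipl, which encodes the carbohydrate-responsive factor ChREBP, was dim and measured 7.60, 7.49, 7.39, 7.72 and 7.45 in High lines, against 7.27, 7.37, 7.50, 7.50 and 7.37 in Low lines. High clones 3F4 and 5C4 were above all Low lines and the remaining 3 were inside their range, giving 0.13 (interval -0.037 to 0.29, limma adjusted p = 0.774).

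The enzymes that join fatty acids to glycerol showed a median difference of 0.017 over 6 genes, all above the median of their array in every line. Gpam adds the first fatty acid, Agpat2 the second, the lipins Lpin1 and Lpin2 remove phosphate, and Dgat1 and Dgat2 complete triglyceride. The differences were -0.094 for Gpam, 0.011 for Agpat2, 0.022 for Lpin2, 0.062 for Dgat1 and 0.076 for Dgat2. Single lines moved the last 2, which ran from 0.017 (without Low clone 2D7) to 0.091 (without Low clone 4H4) for Dgat1 and from 0.0094 (without High clone 4E3) to 0.14 (without High clone 3F4) for Dgat2. Lpin1 differed by -0.023 and was the most variable of the 36 genes between lines. It measured 8.97, 8.14, 8.52, 8.38 and 8.98 in High lines, against 9.17, 8.23, 8.66, 7.87 and 9.18 in Low lines. Low lines held both its highest and its lowest values, in clones 4H4 and 4D11, a 2.49-fold range. Its SD within the classes, 0.49, was larger than that of 98.6% of all genes, and Lpin1 was the 1 gene of the 36 whose lines spanned more than 2-fold.

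None of the 4 genes that supply glycerol 3-phosphate and glucose lay above the median of the array in any line. Their differences were all positive, with a median of 0.12, where 59.7% of all genes had positive ones. Without High clone 5C4 the differences were 0.098 for Gpd1, 0.16 for Aqp7, 0.083 for Slc2a4 and 0.0050 for Pck1. Gpd1, which reduces a glycolytic intermediate to glycerol 3-phosphate, measured 7.64, 7.69, 7.63, 7.69 and 7.64 in High lines, against 7.47, 7.60, 7.53, 7.53 and 7.63 in Low lines. It varied little, its SD of 0.050 being larger than that of only 1.61% of all genes, and 4 of 5 High lines were above all Low lines. Low clone 4H4, at 7.63, overlapped clone 4E3. The difference was 0.11 (SE 0.053) and the fold 1.08, at a limma adjusted p of 0.721.

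Aqp7, the channel through which fat cells release glycerol, measured 6.97, 6.90, 6.72, 6.82 and 6.74 in High lines, against 6.79, 6.67, 6.66, 6.71 and 6.55 in Low lines. High clones 3F4, 4D2 and 5C4 were above all Low lines, and the remaining 2 lay inside the Low range. Its difference of 0.16 (interval 0.0082 to 0.30) had an unadjusted p of 0.0402 and an adjusted p of 0.661 in limma. It was 0.11 (unadjusted p = 0.0915) once a trend of the arrays with brightness was removed. Slc2a4, the insulin-regulated glucose transporter of fat and muscle, differed by 0.14 and Pck1, which makes glycerol precursors in fat cells, by 0.078, with intervals that included 0.

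Among the 7 droplet protein genes the median difference was 0.047, with 6 positive and 1 negative.  Plin3, which coats newly forming droplets in many cell types, measured 11.23, 10.73, 10.99, 10.83 and 11.21 in High lines, against 10.67, 10.84, 10.76, 10.65 and 10.79 in Low lines. High clones 3F4, 4E3 and 5D4 were above all Low lines, and High clones 4D2 and 5C4 were not. The difference was 0.26 (SE 0.10, interval 0.044 to 0.47), or 1.19-fold, with an unadjusted p of 0.0219 and an adjusted p of 0.589 in limma. Without clone 3F4 it was 0.20 (unadjusted p = 0.0606) and without clone 5D4 0.20 (unadjusted p = 0.0588).

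Plin2, the perilipin that covers droplets in most cells and preadipocytes, measured 12.00, 11.58, 11.71, 11.80 and 12.00 in High lines, against 11.73, 11.64, 11.65, 11.57 and 11.78 in Low lines. Clones 3F4, 5C4 and 5D4 were above all Low lines and clone 4D2 lay near the lowest of them, and the difference was 0.15 (interval -0.042 to 0.33, limma adjusted p = 0.774). It was -0.026 with the clone name's digit in the model. Plin1, the perilipin particular to mature fat cells, measured 8.14, 8.08, 7.86, 8.36 and 7.91 in High lines, against 7.87, 8.04, 7.98, 8.07 and 7.92 in Low lines. High clones 3F4, 4D2 and 5C4 were above all Low lines and clone 4E3 below all of them, and the difference of 0.095 had an interval of -0.10 to 0.29 (limma adjusted p = 0.85).

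Cidec, which fuses droplets into the single large droplet of white fat cells, measured 7.46, 7.51, 7.36, 7.67 and 7.44 in High lines, against 7.50, 7.41, 7.38, 7.50 and 7.41 in Low lines. High clones 4D2 and 5C4 were above all Low lines and clone 4E3 below all of them, and the difference was 0.047 (interval -0.10 to 0.19, limma adjusted p = 0.88). Cidea, its relative in brown fat, differed by 0.020 and was below the 25th percentile of every array. Fitm2, which helps droplets bud from the endoplasmic reticulum, differed by 0.037. Bscl2, which encodes seipin at the sites of budding, varied more between lines, from 9.32 to 9.80 in High lines and from 9.32 to 10.13 in Low lines, and differed by -0.15. With 1 line left out its difference ran from -0.25 (without Low clone 1E7) to -0.050 (without Low clone 4H4).

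**Figure D2:**
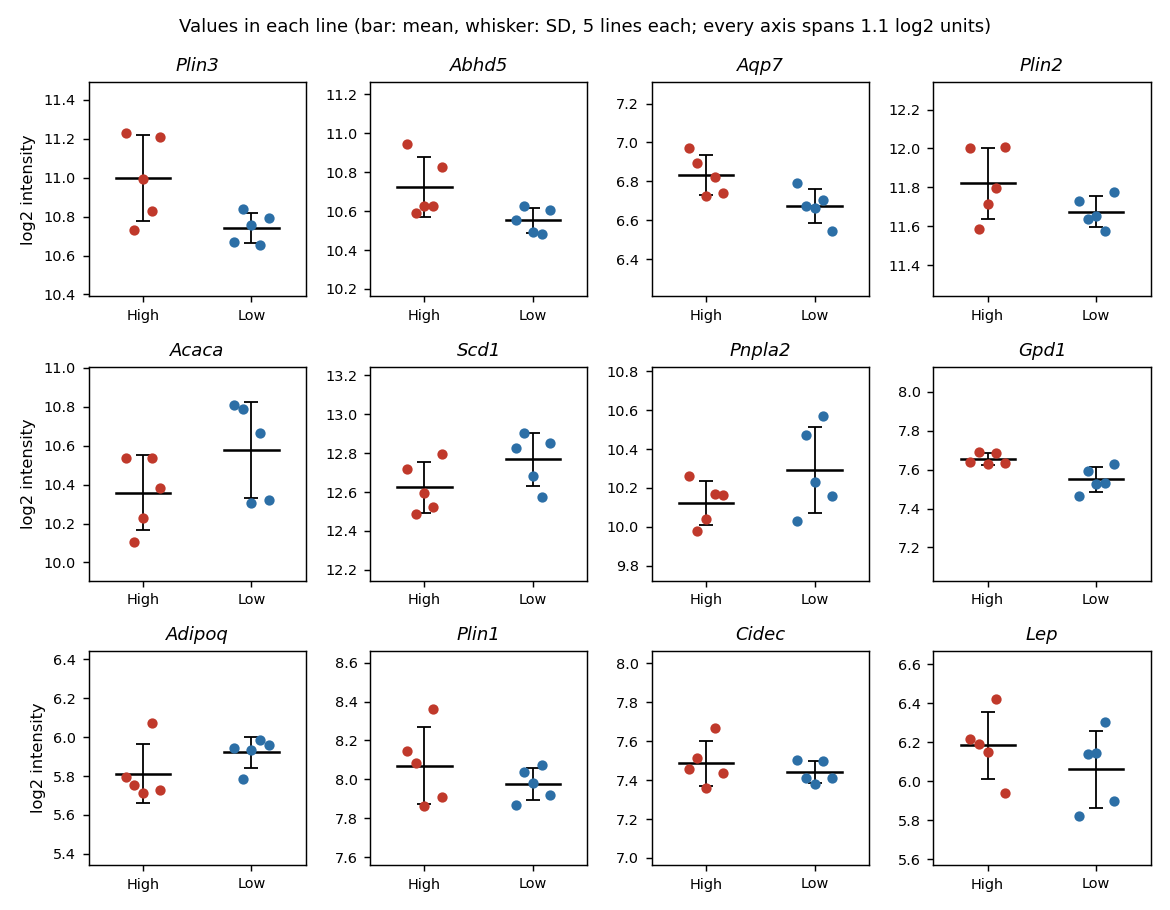
Log2 intensity (vertical axis) of 12 genes in each of 5 High and 5 Low lines; dots are lines, bars are means and whiskers are SD, and all panels span the same height. In every panel the values of the classes overlap, and Plin3, Plin2 and Abhd5 each have their highest values in 2 High lines, clones 3F4 and 5D4.

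Lipolysis genes had a median difference of 0.071 over 5 genes, 3 positive and 2 negative. Pnpla2, the lipase that takes the first fatty acid from triglyceride, measured 10.26, 9.98, 10.04, 10.17 and 10.16 in High lines, against 10.03, 10.47, 10.23, 10.57 and 10.16 in Low lines. Low clones 2D7 and 4D11 were above all High lines and Low clone 1E7 was near the lowest of them, giving -0.17 (interval -0.39 to 0.051, limma adjusted p = 0.777). Abhd5, the coactivator that Pnpla2 needs, measured 10.94, 10.59, 10.63, 10.63 and 10.83 in High lines, against 10.56, 10.63, 10.49, 10.48 and 10.61 in Low lines. Clones 3F4 and 5D4 were above all Low lines by a clear margin, while clones 4E3 and 5C4 exceeded the highest Low line, clone 2D7, by little. The difference of 0.17 (interval 0.0024 to 0.34) had an unadjusted p of 0.0473 and an adjusted p of 0.688 in limma, and it was 0.11 without clone 3F4 (unadjusted p = 0.129) and 0.14 without clone 5D4 (unadjusted p = 0.107). Lipe, the hormone-sensitive lipase of the next step, differed by 0.071, Mgll, which completes the process, by -0.050, and Pnpla3, a relative of Pnpla2, by 0.086.

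Of the 5 adipokines and other fat cell products measured, 4 had signals no higher than those of genes mostly silent in fibroblasts. No background probes were used here, so the 1027 olfactory receptor genes, most of which are silent outside the nose, served as a guide. The 95th percentile of their log2 intensity lay between 7.13 and 7.49 on the 10 arrays. Probe sets differ in how strongly they respond, so a value under this level is no proof of silence and a value above it none of expression. Adipoq (adiponectin), Lep (leptin), Adig (adipogenin) and Car3, an abundant carbonic anhydrase of fat cells, were under it in all 10 lines, as were Aqp7 and Cidea. Adipoq, Lep, Adig and Cidea also failed the filter on low values used for comparison, the 25th percentile of the array in at least 5 arrays. Of the 36 genes 32 passed it, as did 16339 of all 19937 genes.

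Adipoq measured 5.80, 5.75, 5.71, 6.08 and 5.73 in High lines, against 5.94, 5.78, 5.93, 5.99 and 5.96 in Low lines. Apart from clone 5C4, every High line lay below all Low lines but clone 2D7, and the difference was -0.11 (interval -0.28 to 0.060, limma adjusted p = 0.823). Lep measured 6.22, 6.19, 6.15, 6.42 and 5.94 in High lines, against 5.82, 6.14, 6.14, 6.30 and 5.90 in Low lines, with clone 5C4 above all Low lines and the other High lines inside their range, and differed by 0.12 (limma adjusted p = 0.837). Retn (resistin), the 1 gene of this group above the olfactory receptor level, measured 7.56, 7.72, 7.60, 7.71 and 7.86 in High lines, against 7.71, 7.64, 7.70, 7.70 and 7.58 in Low lines. High clones 4D2, 5C4 and 5D4 were above all Low lines and clone 3F4 below all of them, with a difference of 0.025 (limma adjusted p = 0.938) that was negative under 3 other scalings, among them -0.0071 with arrays centred on their medians. Adig differed by -0.10. Car3 measured 6.42, 6.62, 6.45, 6.68 and 6.54 in High lines, against 6.40, 6.41, 6.46, 6.54 and 6.19 in Low lines, a difference of 0.14 (limma adjusted p = 0.751) with High clones 4D2, 5C4 and 5D4 above all Low lines. The 5 genes had a median difference of 0.025, with 3 positive and 2 negative.

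High clone 5C4 bears on the dim genes. Its array had the highest median over olfactory receptor genes, 5.69 against 5.43 to 5.62 on the other 9. Clone 5C4 gave the highest of the 10 values for 9 of the 13 genes not above the array median in all lines. It did so for 4 of the 23 that were. The share over all dim genes of the array was not counted, so 9 of 13 is not read as particular to these genes. Without this line the difference of Adipoq was -0.17 (limma unadjusted p = 0.0113, adjusted p = 0.519) and that of Adig -0.14 (unadjusted p = 0.0341), while that of Plin1 was 0.023, of Lep 0.064 and of Slc2a4 0.083. With the brightness trend of all arrays removed, Adipoq differed by -0.14 (unadjusted p = 0.0356) and Adig by -0.13 (unadjusted p = 0.0294), and neither passed the adjustment. The difference of Adipoq was negative in each of these fits. In Adipoq clone 5C4 stood apart from the other High lines (6.08 against 5.71 to 5.80), so without it High lines varied less. The unadjusted limma p of Adipoq and Adig was 0.066 and 0.060 with median centring, and 0.120 and 0.102 with repeated quantile normalization. With array weights it was 0.033 and 0.054. With any other single line left out it was 0.101 to 0.332 for Adipoq and 0.143 to 0.393 for Adig. Both genes lay below the 25th percentile of every array.

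**Figure D3:**
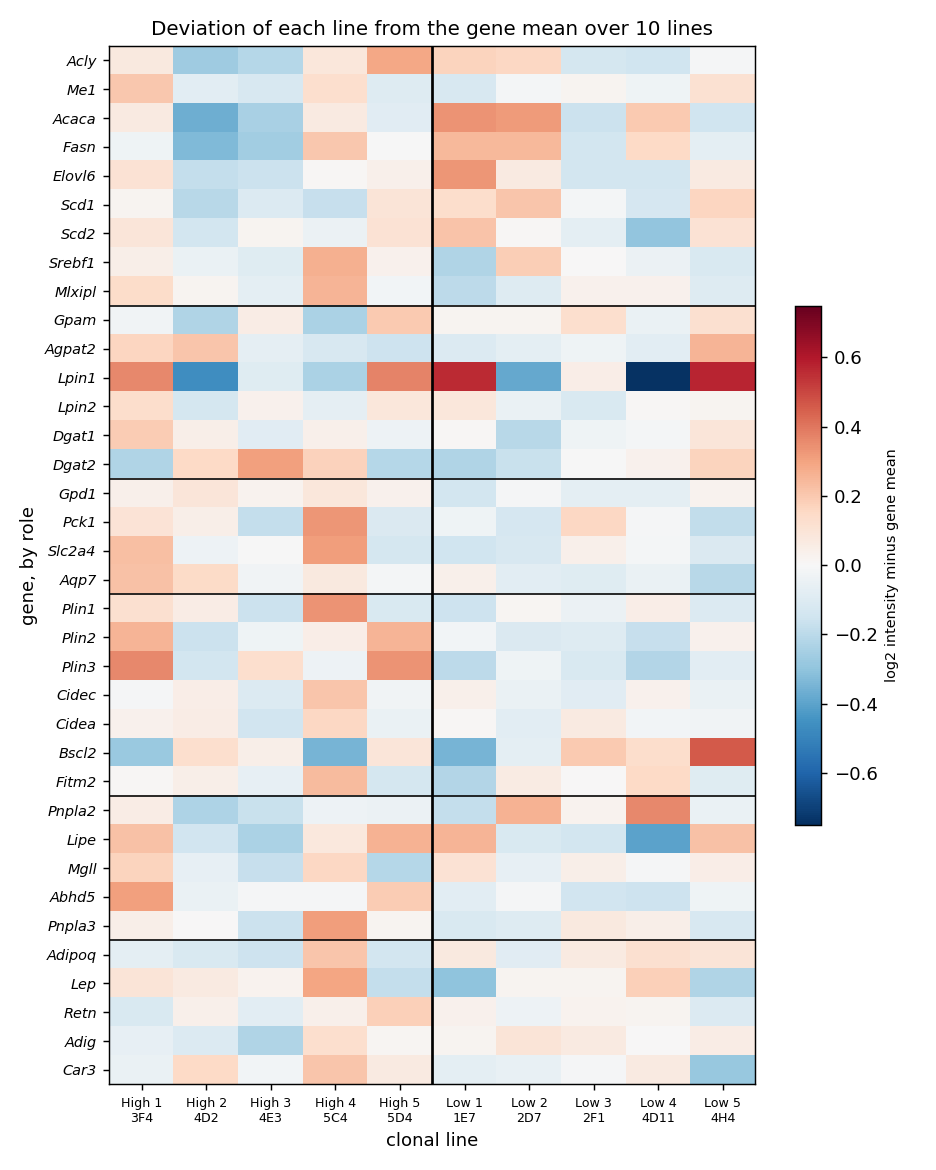
Deviation of log2 intensity from the gene's mean over all lines (colour) for 36 genes (rows, grouped by role) in 5 High and 5 Low lines (columns). Lpin1 shows the strongest colours in both classes, High clone 5C4 is red for most dim genes, and no group of genes divides the columns at the line between the classes.

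Line by line, 5 of the 6 groups of genes had their highest median deviation in 1 of 2 High clones. It was in clone 5C4, the line with the brightest olfactory receptor genes, for glycerol and glucose supply (0.20), droplet proteins (0.16) and adipokines (0.21). For glycerolipid synthesis (0.15) and lipolysis (0.17) it was in clone 3F4. Low clone 4H4 was almost equal for glycerolipid synthesis, at 0.1443 against 0.1453 in clone 3F4. The median deviation of all 36 genes from their means ran from -0.087 in clone 4E3 to 0.084 in clone 5C4 among High lines, and from -0.045 in clone 2D7 to -0.0055 in clone 2F1 among Low lines. For fatty acid synthesis the highest medians were in Low clones 1E7 (0.17) and 2D7 (0.15) and the lowest in High clone 4D2 (-0.18). Of the 36 genes 22 had a larger SD in High than in Low lines, with a median SD of 0.15 in High lines and 0.10 in Low lines. Over all genes these medians were 0.14 in High lines and 0.11 in Low lines.

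Some genes did follow one another across the 10 lines. Pearson's r was computed for the 253 pairs among the 23 genes that lay above the array median in all lines. This cut was meant to limit the brightness trend of dim genes. The pairs named here were picked for their r, so they are descriptions without a test. The median r over the 253 pairs was 0.12, and 5% of them lay above 0.77. Acaca and Fasn, which catalyse consecutive steps, were the closest pair (r = 0.944, Spearman's rho = 0.927). Without the 2 lines farthest from the median of Acaca the value was 0.904. Fasn measured 12.01, 11.71, 11.78, 12.24 and 12.04 in High lines, against 12.28, 12.28, 11.90, 12.19 and 11.96 in Low lines, with the lowest values in High clones 4D2 and 4E3, as for Acaca.

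Plin3 and Abhd5 were the next closest pair (r = 0.933, rho = 0.927), and Plin2 followed Abhd5 (r = 0.892) and Plin3 (r = 0.866). All 3 genes had their highest values in High clones 3F4 and 5D4, and these were also the 2 lines farthest from the median of Plin3 and of Plin2. Without them r was 0.714 for Plin3 with Abhd5, 0.531 for Plin2 with Abhd5 and 0.402 for the 2 perilipins. The pairs with Plin2 thus rest more on those lines than Plin3 with Abhd5 does. Within the 5 Low lines r was 0.741, 0.549 and 0.263 in the same order. Lpin1 followed Scd2 (r = 0.896, and 0.818 without the 2 farthest lines) and Lipe (r = 0.871, and 0.782). Plin1 followed Fitm2 (r = 0.867, and 0.822) and Pnpla3 (r = 0.857, and 0.510). Of the 253 pairs 9 had r over 0.8 and 0 had r under -0.8. The lowest r were -0.775 for Lpin1 with Fitm2 and -0.771 for Gpam with Plin1.

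**Figure D4:**
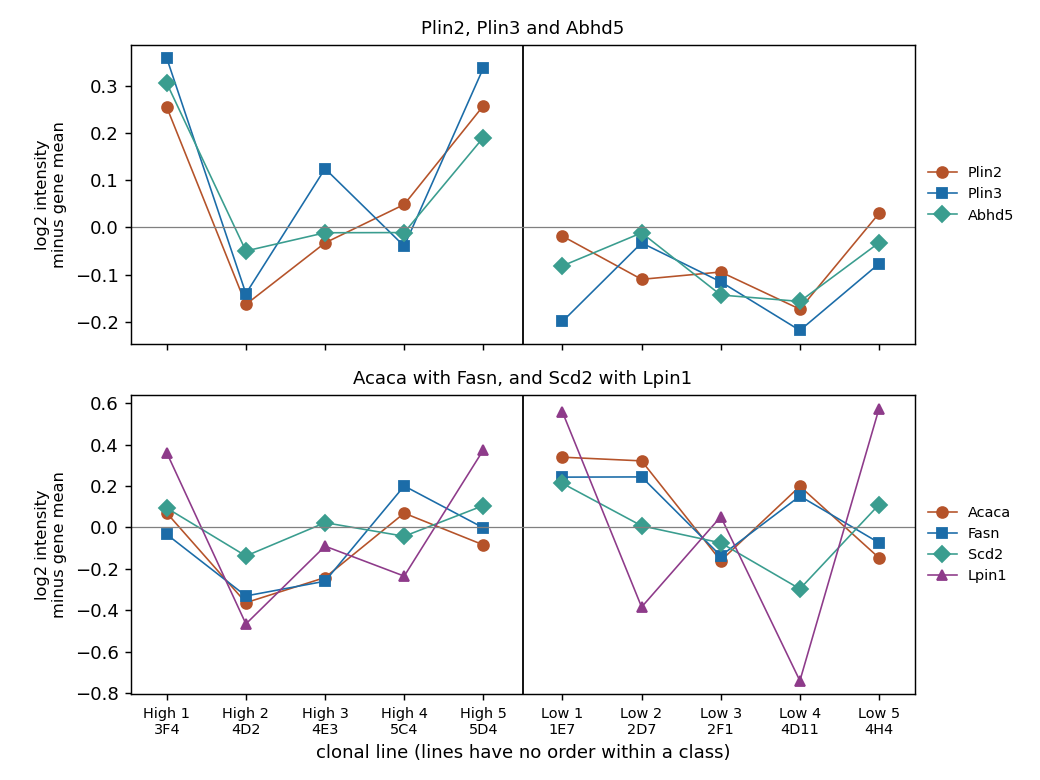
Log2 intensity minus the gene's mean (vertical axis) in 5 High lines (left of the vertical line) and 5 Low lines (right); symbols are lines and thin strokes only join the symbols of a gene within a class. Plin2, Plin3 and Abhd5 peak together in High clones 3F4 and 5D4, Acaca and Fasn are lowest in High clones 4D2 and 4E3, and Lpin1 is lowest in Low clone 4D11.

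The promoters of Plin2, Plin3, Abhd5, Acaca and Fasn are shown to let their sequences be compared. Those of the other genes that followed one another are not shown. RefSeq promoters of assembly GRCm38.p6, which run from 250 bases before to 50 bases after a transcript's start, were found for 28 of the 36 genes. They were searched on both strands for CACGTG (the E-box that USF, MYC and ChREBP partners can bind), CCAAT (the CCAAT box), AGGTCA (the hexamer that nuclear receptors such as PPARG bind) and TCACNCCAC (a core of the sterol response element). Matches, overlapping ones included, are in capitals, and capitals on the other strand read as the reverse complement.
Plin2 (chr4:86670010-86670309, - strand): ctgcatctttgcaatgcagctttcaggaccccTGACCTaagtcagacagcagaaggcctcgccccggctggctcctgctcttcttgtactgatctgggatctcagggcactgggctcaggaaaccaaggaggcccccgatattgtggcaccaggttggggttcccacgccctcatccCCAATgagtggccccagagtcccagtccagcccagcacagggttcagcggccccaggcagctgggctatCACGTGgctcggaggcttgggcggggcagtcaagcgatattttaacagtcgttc
Plin3 (chr17:56290462-56290761, - strand): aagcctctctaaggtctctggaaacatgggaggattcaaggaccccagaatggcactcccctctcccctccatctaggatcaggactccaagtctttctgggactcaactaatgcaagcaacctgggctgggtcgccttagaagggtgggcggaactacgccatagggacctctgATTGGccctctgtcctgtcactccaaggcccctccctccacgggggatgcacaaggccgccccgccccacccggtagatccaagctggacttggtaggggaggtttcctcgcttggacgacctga
Abhd5 (chr9:122351366-122351665, + strand): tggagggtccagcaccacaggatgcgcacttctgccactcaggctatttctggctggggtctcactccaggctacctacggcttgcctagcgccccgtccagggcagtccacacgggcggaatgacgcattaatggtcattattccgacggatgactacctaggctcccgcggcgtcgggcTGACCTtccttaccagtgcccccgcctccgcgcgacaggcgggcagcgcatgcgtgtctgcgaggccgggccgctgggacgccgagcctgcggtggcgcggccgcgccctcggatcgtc
Acaca (chr11:84195188-84195487, + strand): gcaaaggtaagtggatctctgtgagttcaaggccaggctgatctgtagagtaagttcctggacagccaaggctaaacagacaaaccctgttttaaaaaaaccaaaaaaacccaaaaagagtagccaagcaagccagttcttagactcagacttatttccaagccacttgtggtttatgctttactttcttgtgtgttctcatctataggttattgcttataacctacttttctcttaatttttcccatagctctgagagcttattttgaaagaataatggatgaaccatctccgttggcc
Fasn (chr11:120824498-120824797, - strand): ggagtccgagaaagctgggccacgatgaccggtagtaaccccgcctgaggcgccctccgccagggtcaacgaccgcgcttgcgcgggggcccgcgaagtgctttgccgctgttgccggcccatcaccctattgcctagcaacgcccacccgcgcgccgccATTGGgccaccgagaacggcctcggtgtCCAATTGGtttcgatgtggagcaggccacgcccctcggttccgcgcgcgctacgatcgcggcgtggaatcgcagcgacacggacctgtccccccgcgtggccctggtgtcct

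The Plin2 promoter held 1 E-box, 1 CCAAT box and 1 AGGTCA hexamer, that of Plin3 1 CCAAT box, and that of Abhd5 1 AGGTCA hexamer, so no motif was shared by all 3 of these promoters. That of Fasn held 3 CCAAT matches, and the window of Acaca held 0 of the 4 motifs. The Acaca window is that of 1 RefSeq transcript, and whether transcription starts there in these cells was not tested. Its 0 therefore says nothing of other starts of the gene. Over all 32851 promoters of this length, 37.4% held a CCAAT box, 16.3% an AGGTCA hexamer, 7.15% an E-box and 1.24% the sterol element core. Of the 28 genes 13 held a CCAAT box, 9 an AGGTCA hexamer, 5 an E-box and 1, Mlxipl, the sterol element core in at least 1 of their promoters. Counted the same way, 41.1% of 27025 genes held a CCAAT box, 18.1% an AGGTCA hexamer, 8.09% an E-box and 1.44% the sterol element core. These are matches of letters only.

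Other genes of the same pathways were counted from lists chosen with earlier results of these data known, so the counts are descriptions. Of 107 such genes 99 were found, with 60 positive and 39 negative differences and a median of 0.047. Over all genes 59.7% of differences were positive. At an unadjusted p under 0.05 there were 5 positive (3.01% of all genes were) and 6 negative (4.20% of all genes were), and Angptl4 alone passed the adjustment. Among 34 further fatty acid synthesis genes the median was -0.0064. Acacb, which encodes the other acetyl-CoA carboxylase, differed by 0.17, the sterol receptor gene Nr1h3 by 0.22, the elongase gene Elovl4 by -0.49 and the acyl-CoA synthetase gene Acsl4 by -0.24. Among 19 further glycerolipid and glycerol genes the median was -0.021, and the acyltransferase genes Gpat4 and Agpat5 differed by -0.16 and -0.22 and the glycerol 3-phosphate dehydrogenase gene Gpd2 by -0.25. None of these 7 passed the adjustment, the smallest limma adjusted p being 0.42 for Agpat5.

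Of 15 further droplet protein genes 12 had positive differences (median 0.049), where 59.7% of all genes did. Plin4 differed by 0.77 (limma adjusted p = 0.28) and the droplet hydrolase gene Ldah by -0.25. Among 12 further lipases and lipolytic genes the median was 0.018 and 0 reached an unadjusted p under 0.05. Of 19 further secreted factors 16 had positive differences (median 0.12), and in 8 of the 19 no line lay above the olfactory receptor level. Angptl4, which inhibits lipoprotein lipase, differed by 0.88 and passed (limma adjusted p = 0.00116), and Rarres2, the precursor of chemerin, differed by 0.60 without passing.

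Fat cell markers outside the 37 genes were set beside them. Of 14 found, 13 had positive differences (59.7% of all genes did) and 5 of them an unadjusted limma p under 0.05 (3.01% of all genes did). In 3 of the 14, Plin4, Cd36 and Pparg, the classes did not overlap, which 1.35% of all genes showed. Their median difference was 0.15, against 0.031 for the 36 genes. The list was chosen with earlier results of these data known, so its shares describe it and are no test. In 3 of the 14 genes no line lay above the olfactory receptor level. The difference between these lists was not tested. Fabp4, the fatty acid carrier of fat cells, differed by 1.22. Cd36, the fatty acid uptake receptor, measured 6.78, 5.78, 7.65, 6.07 and 5.39 in High lines, against 5.24, 5.37, 5.18, 5.11 and 5.19 in Low lines. Only High clones 3F4 and 4E3 lay above the 25th percentile of their array (6.38 to 6.47 over the arrays), and only clone 4E3 above the olfactory receptor level. The other 8 values are near background, so the fitted difference of 1.12 is not an exact fold. That the classes did not overlap in Cd36 rests on 5.39 in High clone 5D4 against 5.37 in Low clone 2D7, both near background. Pparg, the master regulator of fat cell formation, differed by 0.62 and Trarg1, a partner of glucose transport, by 0.21. None of these passed the adjustment in limma. The mean level of the 14 ran from 8.215 to 8.608 in High lines and from 8.004 to 8.251 in Low lines. In RNA from whole cultures, fewer cells of a type and less RNA per cell cannot be told apart, so these values do not divide a change in all cells from a few differentiated cells. Among the 37 genes, Adipoq, Lep, Adig and Cidea lay below the 25th percentile of the array in all 10 lines. Plin1, Cidec and Retn lay above the olfactory receptor level in all 10 lines of both classes, with 95% intervals that stayed within 1.5-fold.

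Markers of the labelled cell type and of others were checked against the median of the array. Of 11 preadipocyte and fibroblast markers found, 10 lay above it in all lines, as did 0 of 6 endothelial, 2 of 6 macrophage and leukocyte (Cd68 and Cd14), 1 of 6 epithelial (Krt8) and 2 of 6 skeletal muscle markers (Des and Acta1). Probe sets differ in response, so these counts are no measure of how many cells of a type were present. Within a list, the mean level ran from 12.12 to 12.35 in High and 12.05 to 12.22 in Low lines for the fibroblast markers and from 6.78 to 6.95 in High and 6.74 to 6.84 in Low lines for the endothelial ones. It ran from 7.19 to 7.25 in High and 7.15 to 7.33 in Low lines for macrophages, from 7.30 to 7.59 in High and 7.30 to 7.37 in Low lines for epithelium, and from 7.68 to 7.76 in High and 7.36 to 7.81 in Low lines for muscle. Genes of these lists with an unadjusted limma p under 0.05 were Pdgfra (0.33) and Thy1 (0.34) of fibroblasts, Vwf (0.16) of endothelium, Adgre1 (0.15) and Csf1r (-0.16) of macrophages, Cdh1 (0.18) of epithelium and Myog (0.21) of muscle, and 0 passed the adjustment. Their part in the differences above was not tested.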

How the data were processed

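Gene expression was measured on Affymetrix arrays, 1 array for each of 10 clonal lines, 5 High and 5 Low. The deposited values are log2 intensities made by the authors with RMA, per the submitters' processing notes, and RMA's version and settings were not given in the sources used here. RMA brings arrays to a common distribution, so a shift shared by all genes cannot be seen. Of 34760 probe sets, 21640 carried 1 gene symbol in GEO's platform annotation, 1321 several and 11799 were not listed. Probe sets with 1 symbol gave 19937 genes, each by its brightest probe set. Me1 and Acaca had 2 probe sets.

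High lines were compared with Low lines in limma 3.58.1 (R 4.3.3, lmFit and eBayes, two-sided, Benjamini-Hochberg adjustment over 19937 genes), without an intensity filter. The code was tested on simulated data. Summaries used Python 3.11.15. The clones are separate lines, and nothing says that repeat cultures of a line were made. The p-values therefore set a difference against clonal, culture and array variation together. Alternatives were an intensity filter, the mean of probe sets, median centring, repeated quantile normalization, a variance trend with robust estimation, array weights, the first digit of clone names as a term and leaving out each line. Cyclic loess was added after seeing the data.

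The 10 genes with the smallest p were given with every value, and so were Adipoq, Plin1, Cidec, Lep and Retn; Fasn, Lpin1, the correlated pairs and the promoters were chosen after their values were seen. Other listed genes were named at an unadjusted p under 0.05, at most 4 a list. The 37 genes and all lists were chosen with earlier results of these data known. Of 155 other listed genes 146 were found.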

Additional observations from a re-analysis of the deposited data

Results flagged for a closer look

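In each class, the line farthest from its neighbours was set against the range of the class by Dixon's criterion. Over 72 sets, 36 genes in 2 classes, 3 lines stood apart, where chance alone gives 3.6. Agpat2 measured 11.96 in Low clone 4H4, against 11.60 to 11.67 in the other Low lines. Adipoq measured 6.08 in High clone 5C4, against 5.71 to 5.80 in the other High lines, on the array with the highest olfactory receptor median. Adipoq measured 5.78 in Low clone 2D7, against 5.93 to 5.99 in the other Low lines.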

How the results depend on the processing

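No paired analysis was possible because the lines are separate clones and their numbers were given in accession order. Over 18 alternatives, 0 of the 36 genes passed the threshold, and the smallest limma adjusted p was 0.502. Leaving single lines out aside, 23 of 284 gene differences turned sign, and with 1 line left out 27 of 360 did; 21 genes never turned. The cause was not tested. With the first digit of clone names as a term, which leaves 4 lines to give the difference, negative differences replaced positive ones for Agpat2 (-0.017), Cidea (-0.020), Cidec (-0.019), Dgat1 (-0.058), Fitm2 (-0.036), Lipe (-0.10), Lpin2 (-0.062), Me1 (-0.14), Plin1 (-0.025), Plin2 (-0.026) and Pnpla3 (-0.042). The medians were then -0.031 for the 36 genes, -0.058 for lipogenesis and -0.10 for lipolysis, 1 gene of the 36 had an unadjusted p under 0.05, and 0 of all genes passed. Median centring gave Agpat2 -0.020, Cidea -0.012, Lpin2 -0.0095, Me1 -0.019, Retn -0.0071 and Scd2 -0.015, with 0 of the 36 at an unadjusted p under 0.05 and 2 of all genes past the threshold. Its calls at an unadjusted p under 0.05 over all genes were 354 positive and 1294 negative, against 600 and 838 as deposited. Cyclic loess gave Acly 0.0059, Cidea -0.0068 and Retn -0.013. Repeated quantile normalization gave Retn -0.010, array weights Me1 -0.0095 and the mean of probe sets Me1 -0.054. With 1 line left out, the genes of the whole table past the threshold were 1 to 18, with 18 without High clone 5D4 and 2 without Low clone 2F1 or 4H4. The genes of the 36 at an unadjusted p under 0.05 were 0 without High clone 3F4 to 5 without High clone 5C4. Differences of genes that turned sign ran from -0.086 to 0.053 for Acly, -0.040 to 0.077 for Agpat2, -0.017 to 0.058 for Cidea, -0.017 to 0.079 for Fitm2, -0.020 to 0.14 for Lipe, -0.21 to 0.12 for Lpin1, -0.0080 to 0.058 for Lpin2, -0.036 to 0.044 for Me1, -0.018 to 0.056 for Retn and -0.056 to 0.072 for Scd2. Of the 36 genes 32 passed the 25th percentile filter, as did 16339 of all 19937 genes. In at least 5 arrays 23 lay above the 50th percentile and 30 above the olfactory receptor level, shares not counted over all genes. For the other 6 signal near background limits what a difference can show. The limit is not confined to them, since Mgll was above that level in only 6 of 10 lines.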
